A study of Mus musculus with 4 samples.

Results

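The voltage-gated sodium and calcium channels, the hyperpolarization-activated HCN channels, the TRP cation channels and the connexins were followed through 4 mouse heart transcriptomes. The genes were chosen by symbol: every listed gene whose name begins with Scn, Hcn, Trpc, Trpm, Trpv, Gja, Gjb or Gjc and a digit, or with Cacna, Cacnb or Cacng. Of the 12408 listed genes 41 met this rule, 8 of sodium channels, 14 of calcium channels, 2 of HCN channels, 12 with TRP names and 5 connexins. One of the 12, Trpc4ap, encodes a protein that binds TRPC4 and is not a channel. In the GENCODE M21 annotation 83 protein-coding genes match the rule, and the other 42 were not analysed here.

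RNA of whole hearts was sequenced from 4 mice, with 1 library in each group. The group labelled cKO TAC carried WW45 flox/flox and a Cre recombinase under the alpha-myosin heavy chain promoter (alpha-MHC-CRE), and was taken 4 weeks after constriction of the transverse aorta (TAC), which loads the left ventricle with pressure. The group labelled cKO baseline had the same genotype without TAC. The groups labelled CT TAC and CT baseline carried WW45 flox/flox without Cre, the first after 4 weeks of TAC and the second without. All mice were C57BL/6 and 3 months old. WW45 is a scaffold of the Hippo kinase cascade, listed under its symbol Sav1. Cre under this promoter acts in cardiomyocytes, so every other cell type of the heart keeps the gene. No group carried Cre without the floxed gene and none is labelled as sham-operated, so Cre cannot be told apart from the deletion, nor the operation from the load.

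The libraries held 1587840 to 2796547 reads recovered from the deposited values, the largest number in CT baseline, and 0.186% to 0.229% of them fell on the 41 genes. One read was worth 0.544 CPM (reads scaled to a common library size) in cKO TAC, 0.612 in cKO baseline, 0.499 in CT TAC and 0.371 in CT baseline. Sav1 had 46.2 CPM in the library labelled cKO TAC, 39.8 in cKO baseline, 35.4 in CT TAC and 49.3 in CT baseline. The library labelled cKO TAC thus had more Sav1 than CT TAC (0.38 on the log2 scale), which goes against its label, although reads summed over a gene do not show single exons. Every direction below is between libraries as labelled. Cardiomyocyte markers were detected in every library, all 12 of 12, with no marker at least 2-fold apart in any pair.

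Voltage-gated sodium channels carry the upstroke of the cardiac action potential, and L-type calcium channels carry the current that triggers contraction. Each is a large pore-forming subunit with smaller auxiliary subunits that set its traffic and gating. HCN channels carry the pacemaker current, TRP channels pass cations in response to lipids, stretch, calcium or temperature, and connexins form the gap junctions through which heart cells pass current to each other. In ventricular muscle Cav1.2 (Cacna1c) is the main calcium channel and connexin 43 (Gja1) the main connexin.

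The promoters of 4 genes whose levels are described below are given first. Of these, Scn4a and Cacna1s were both highest in CT baseline, and Gja1 and Hcn2 each had another pattern. Cacna1c, Scn4b, Trpm4 and Trpv4 were also highest in CT baseline. Each sequence is the 250 bases before the annotated start, 5′ to 3′, from RefSeq (GRCm38.p6): Scn4a at chr11:106349391-106349640 on the minus strand, Cacna1s at chr1:136052561-136052810, Gja1 at chr10:56377050-56377299 and Hcn2 at chr10:79716384-79716633, these 3 on the plus strand. The Scn4a stretch lies inside the gene as GENCODE M21 places it (106318592 to 106353288, minus strand), so the bases before the GENCODE start are not shown. The Cacna1s stretch runs past the GENCODE start at 136052750, so its last bases also lie inside the gene. Capitals mark the core of the site bound by TEAD factors, the partners of the Hippo effector YAP (GGAATG), and the GC box (GGGCGG), on either strand. The GC box of Cacna1s, from base -46 to -41, stands in the part inside the gene.
Scn4a: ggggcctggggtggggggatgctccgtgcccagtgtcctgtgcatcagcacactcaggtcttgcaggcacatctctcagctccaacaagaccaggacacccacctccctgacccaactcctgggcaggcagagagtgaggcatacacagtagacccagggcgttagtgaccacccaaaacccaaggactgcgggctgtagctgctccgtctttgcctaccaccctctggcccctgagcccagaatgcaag
Cacna1s: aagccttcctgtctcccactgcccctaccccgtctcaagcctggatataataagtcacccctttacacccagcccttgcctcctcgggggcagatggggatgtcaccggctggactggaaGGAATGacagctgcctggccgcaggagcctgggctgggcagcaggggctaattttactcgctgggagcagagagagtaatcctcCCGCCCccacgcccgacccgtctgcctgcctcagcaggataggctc
Gja1: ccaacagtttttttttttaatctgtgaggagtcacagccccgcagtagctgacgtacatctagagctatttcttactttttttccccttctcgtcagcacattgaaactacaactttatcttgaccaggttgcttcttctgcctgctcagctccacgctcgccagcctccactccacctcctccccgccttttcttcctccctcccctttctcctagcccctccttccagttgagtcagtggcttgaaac
Hcn2: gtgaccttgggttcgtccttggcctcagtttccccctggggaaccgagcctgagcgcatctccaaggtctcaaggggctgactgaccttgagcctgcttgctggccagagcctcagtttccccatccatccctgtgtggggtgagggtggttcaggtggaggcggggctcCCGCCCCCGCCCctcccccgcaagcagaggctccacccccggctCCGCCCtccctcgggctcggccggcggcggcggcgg

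Promoters were found for 32 of the 41 genes, 45 promoters in all. The TEAD core stood in 8 of the 45 (17.8%), against 12.6% of all 32851 promoters of that length. Of the 4 shown, only Cacna1s held it, from base -130 to -125. The GC box stood in 20 of the 45 (44.4%), against 32.7% of all promoters, and Hcn2 held 3 copies between bases -80 and -31. Of 3 further motifs, searched on both strands like these, the GATA motif (AGATAA) stood in 2 of the 45 against 9.99% of all, the MEF2 motif in 1 against 3.2%, and the TATA box (TATAAA) in 5 against 12.4%. The median GC content was 60.4% in the 45 promoters and 52.4% in all. A match is a run of letters and was not tested as a binding site.

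**Figure D1:**
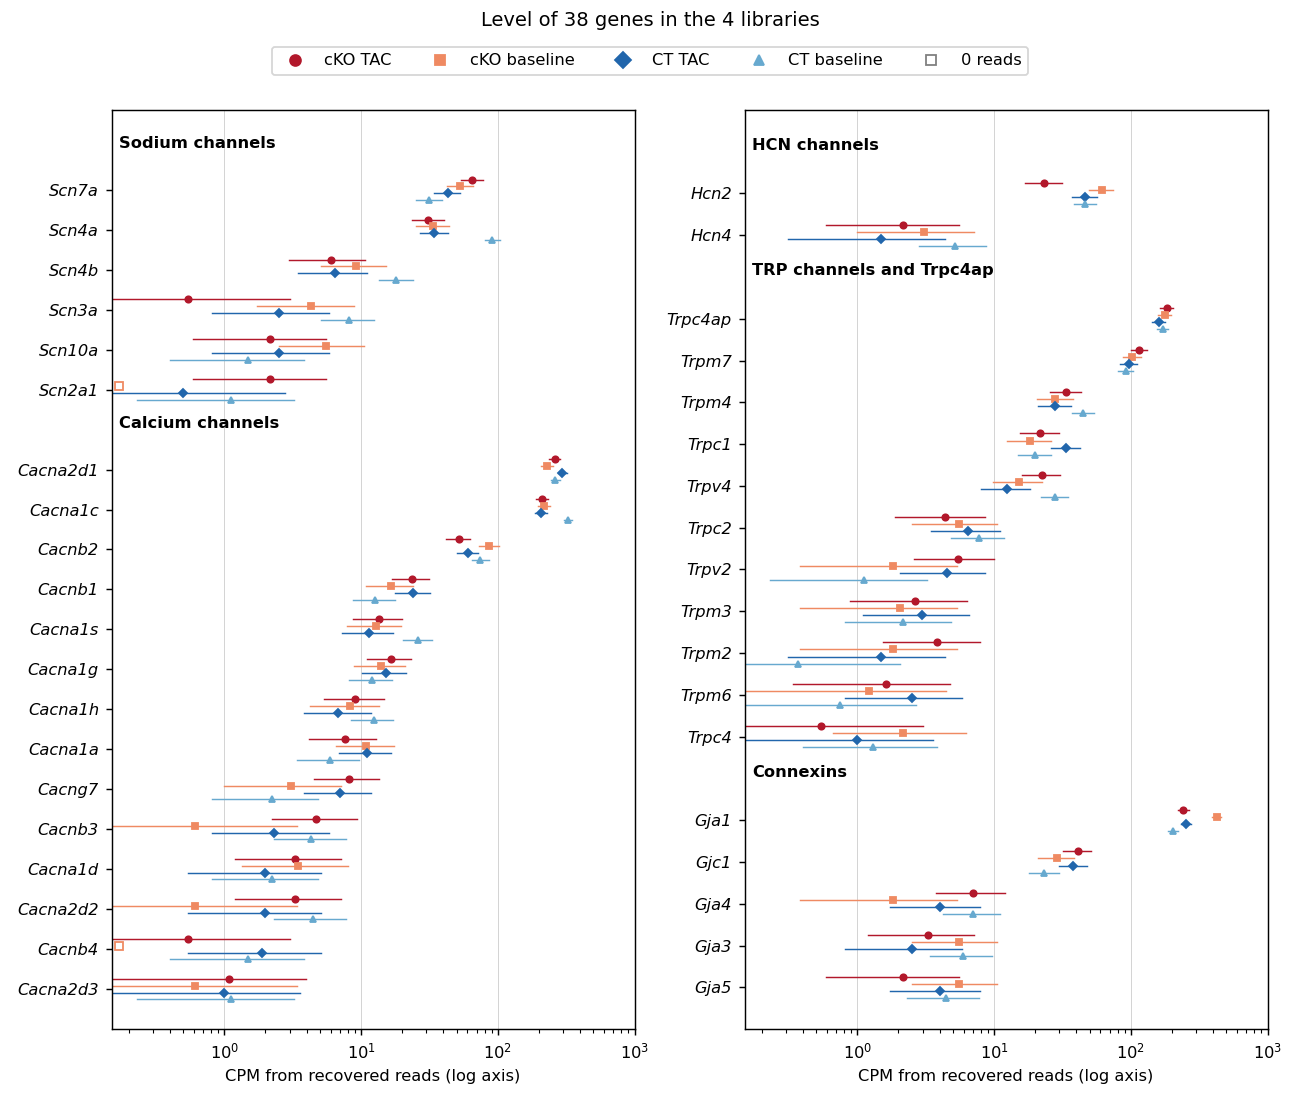
CPM (log axis) of 38 of the 41 genes in the libraries cKO TAC, cKO baseline, CT TAC and CT baseline, by family; lines are 95% counting intervals, open symbols mark 0 reads. The levels span Scn2a1, with a mean of 0.947 CPM, to Gja1, with a mean of 281 CPM.

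Levels were compared between genes per kilobase of exon, using GENCODE M21 exon lengths. Averaged over the 4 libraries, Gja1 had 27.4 CPM per kilobase. The calcium channel alpha2delta1 gene Cacna2d1 had 21.2, Hcn2 had 13.8 and Cacna1c had 11.3. Trpm7, with 8.96 CPM per kilobase, was the highest TRP channel. At the low end stood Trpm3 and Scn2a1, with 0.101 and 0.0744 CPM per kilobase. Of the 41 genes 32 exceeded 1 CPM in all 4 libraries, 5 in 3 and 4 in 2. A mean under 5 CPM was found for 17 of them, and 2 of these, Scn2a1 and Cacnb4, had 0 reads in cKO baseline (the exact Poisson interval of 0 reads reaches 2.26 CPM there).

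Libraries were compared 2 at a time, by the log2 ratio of the deposited values and by a 95% counting interval of the fold. Passing meant a difference of 2-fold or more together with an interval that left out 1. The intervals cover counting error only, without the spread between mice, and a pair compares libraries, not conditions, with no replicate check. Of the 41 genes, 14 passed in at least 1 of the 4 pairs, against 19.5% of all genes, and 27 in none. Of the 14, 5 passed in more than 1 pair, as did 6.84% of all genes. A fit over all 4 libraries (limma, with terms for genotype and for surgery) is the test across conditions. It has 2 mice a side and 1 residual degree of freedom.

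Of the pore-forming sodium channel genes, Scn4a was higher in CT baseline than in every other library. It encodes Nav1.4, the channel of skeletal muscle (mm10 chromosome 11, 106318592 to 106353288, minus strand). Scn4a had 31.0 CPM in cKO TAC, 33.6 in cKO baseline, 34.4 in CT TAC and 91.2 in CT baseline. CT baseline was high, and the other three lay together within their counting intervals. Scn4a was lower by 1.43 log2 units in cKO baseline than in CT baseline (fold 0.369, interval 0.270 to 0.496) and lower by 1.39 in CT TAC than in CT baseline (0.378, 0.285 to 0.495). The cKO TAC library did not pass against cKO baseline (-0.12) or CT TAC (-0.15). Both comparisons that passed share the CT baseline library. Of the 41 genes Scn4a alone was at least 2-fold higher in CT baseline than in each of the other 3 libraries, with intervals that excluded 1, as were 0.451% of all genes.

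The 10 listed of 13 markers of skeletal muscle summed to 4914 CPM in cKO TAC, 4661 in cKO baseline, 11480 in CT TAC and 4501 in CT baseline, nearly all of it Acta1 and Ckm, which heart muscle also expresses. Acta1 had 2906, 1976, 9347 and 661 CPM in the same order of libraries. Ckm, muscle creatine kinase, had 1922, 2597, 2060 and 3808 CPM, highest in CT baseline as was Scn4a, and passed in no pair. Markers that passed against CT baseline were higher than in it: 2 in cKO baseline (Acta1 and Mybpc2) and 3 in CT TAC (these and Myh4, on 14 reads against 6), with 0 lower. Of all genes 3.26% and 6.05% were higher in these pairs. Mybpc2, a fast muscle myosin-binding protein, had 60.9 CPM in cKO TAC, 63.6 in cKO baseline, 44.9 in CT TAC and 17.4 in CT baseline. Myh1 and Mylpf, fast skeletal muscle genes, had 0 reads in some library and at most 1.997 CPM. The part of these markers in the level of Scn4a was not tested.

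Scn7a encodes Nax, a sodium sensor of glia and other non-muscle cells. It had 64.7 CPM in cKO TAC, 53.2 in cKO baseline, 42.9 in CT TAC and 31.5 in CT baseline, and both cKO libraries were above both CT libraries. The genotype ratio was 0.59 under TAC (fold 1.51, interval 1.13 to 2.01) and 0.75 at baseline (1.69, 1.24 to 2.31), under 2-fold in both. The genotype difference in limma's fit was 0.67 (SE 0.23, adjusted p = 0.547), the lowest unadjusted p of the 41 genes for genotype (0.0142). Of 14 Schwann cell and neural markers 5 were listed, and they summed to 19.2 CPM in cKO TAC, 17.1 in cKO baseline, 11.0 in CT TAC and 24.0 in CT baseline. Of these Sox10 had 0 reads in CT TAC, and L1cam passed, higher in cKO TAC than in CT TAC and lower in CT TAC than in CT baseline. Fibroblast markers summed to 9704 CPM in cKO TAC, 5744 in cKO baseline, 8428 in CT TAC and 4167 in CT baseline. Of the 13, 0 passed in cKO TAC against CT TAC, and 6 in cKO baseline against CT baseline, 8 in CT TAC against CT baseline and 8 in cKO TAC against cKO baseline were higher. Of all genes 5.02% passed in the first of these pairs, and 3.26%, 6.05% and 3.68% were higher in the others. The part of either cell type in the level of Scn7a was not tested. Fewer cells of a type and less RNA per cell cannot be told apart in whole hearts.

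Scn3a, the brain channel Nav1.3, was the one gene of the 41 that passed under TAC in both genotypes, as did 2.07% of all genes. It had 1 read in cKO TAC, 7 in cKO baseline, 5 in CT TAC and 22 in CT baseline, and was highest in CT baseline. Its TAC ratio was -2.21 in cKO (fold 0.127, interval 0.00282 to 0.989) and -1.53 in CT (0.306, 0.0905 to 0.828). With log2(CPM + 5) it was -0.74 in cKO and -0.81 in CT and passed in neither. In limma's fit it was -1.87 (SE 0.55, adjusted p = 0.125). Scn10a, the sensory neuron channel Nav1.8, had 4 reads in cKO TAC, 9 in cKO baseline, 5 in CT TAC and 4 in CT baseline. It passed in cKO baseline against CT baseline with an interval from 1.04 to 16.5.

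None of the 41 genes was at least 2-fold higher or lower, with intervals that excluded 1, in cKO TAC, cKO baseline or CT TAC than in each of the other 3 libraries. Among all genes the shares were 0.411% higher and 0.371% lower in cKO TAC, 0.347% and 0.153% in cKO baseline, and 0.282% and 0.524% in CT TAC. In CT baseline 1 of the 41 was lower, as were 1.12% of all genes.

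Scn4b encodes beta4, an auxiliary subunit of sodium channels. It had 5.98 CPM in cKO TAC, 9.18 in cKO baseline, 6.49 in CT TAC and 18.2 in CT baseline. CT baseline was highest, as for Scn4a. Scn4b was lower by 1.42 in CT TAC than in CT baseline (fold 0.357, interval 0.178 to 0.669), and at -0.95 in cKO baseline against CT baseline it did not pass (0.505, 0.263 to 0.916).

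**Figure D2:**
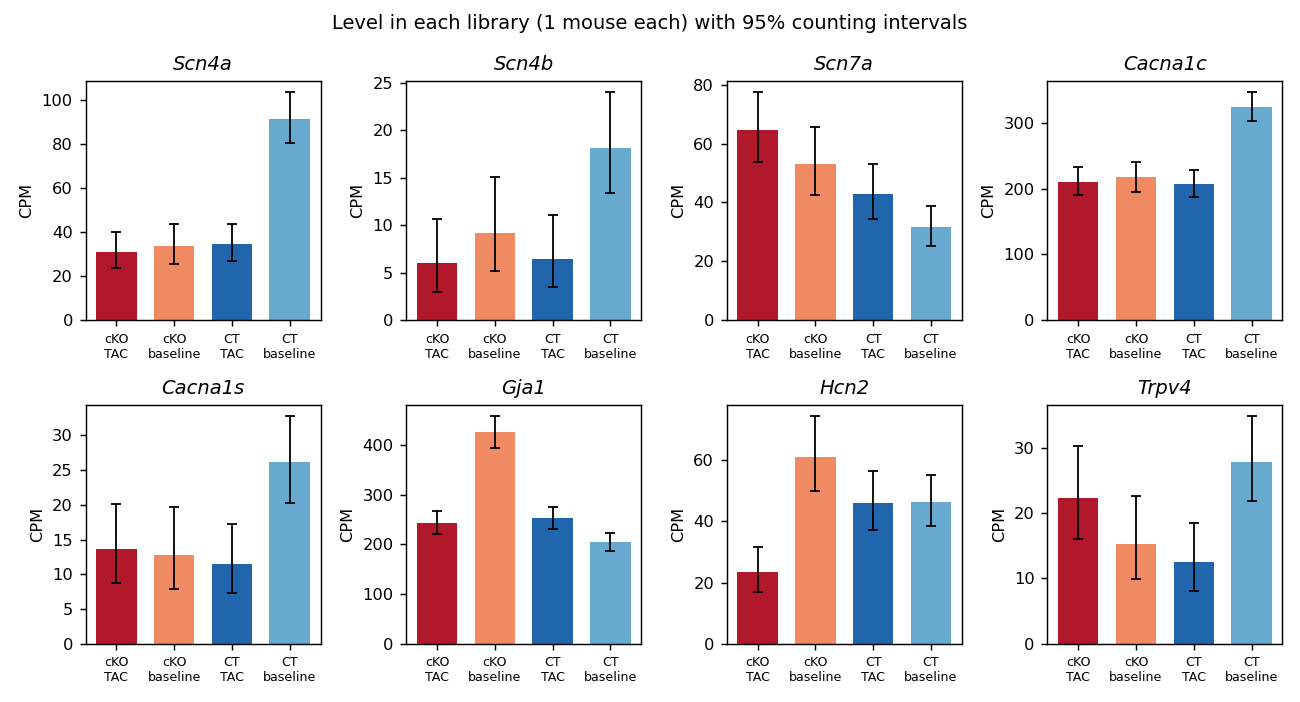
CPM of 8 genes in the libraries cKO TAC, cKO baseline, CT TAC and CT baseline, 1 mouse each, with 95% counting intervals as bars. Scn4a, Scn4b, Cacna1c, Cacna1s and Trpv4 are highest in CT baseline, Scn7a is higher in both cKO libraries, Gja1 is highest in cKO baseline and Hcn2 is lowest in cKO TAC.

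Of the pore-forming calcium channel genes, Cacna1c, Cacna1s and Cacna1h had their highest level in CT baseline, Cacna1h with overlapping counting intervals. Cacna1c, the cardiac L-type channel (chromosome 6, 118587240 to 119196418), had 211 CPM in cKO TAC, 218 in cKO baseline, 207 in CT TAC and 325 in CT baseline. The first 3 libraries were alike and CT baseline stood above them. The difference stayed under 2-fold, with a ratio of -0.58 in cKO baseline against CT baseline (fold 0.671, interval 0.591 to 0.759) and -0.65 in CT TAC against CT baseline (0.638, 0.566 to 0.718). Cacna1s, the skeletal muscle L-type channel Cav1.1 (chromosome 1, 136052750 to 136119822), had 13.6 CPM in cKO TAC, 12.9 in cKO baseline, 11.5 in CT TAC and 26.1 in CT baseline. It was lower by 1.15 in CT TAC than in CT baseline (0.439, 0.264 to 0.718), though not with log2(CPM + 5), where the ratio was -0.92. It stayed just short of the threshold in cKO baseline against CT baseline, where the deposited values came to less than 2-fold and the reads to a fold of 0.491 (0.289 to 0.816). Cacna1s took 6.07%, 5.57%, 5.25% and 7.40% of the reads of Cacna1s and Cacna1c in cKO TAC, cKO baseline, CT TAC and CT baseline, with overlapping intervals. Cacna1s overlaps the exons of another gene on the opposite strand over 20% of its exon length, and reads of both L-type genes were partly shared.

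The T-type genes, which in the adult ventricle are less expressed than the L-type gene Cacna1c, did not pass in any pair. Cacna1g had 16.5 CPM in cKO TAC, 14.1 in cKO baseline, 15.2 in CT TAC and 11.95 in CT baseline. Cacna1h had 8.97 CPM in cKO TAC, 8.26 in cKO baseline, 6.74 in CT TAC and 12.4 in CT baseline. Counting intervals of the 4 libraries overlapped for each gene. The other pore genes, Cacna1a of neuronal channels and Cacna1d of the sinoatrial L-type channel, did not pass either, with ratios between -0.50 and 0.84.

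The auxiliary calcium channel genes differed in the mix of beta subunits, which bring the pore to the membrane. Cacnb2, the main beta subunit of the heart, had 51.7 CPM in cKO TAC, 86.9 in cKO baseline, 60.4 in CT TAC and 74.5 in CT baseline. Cacnb1, known mainly from skeletal muscle, had 23.6 CPM in cKO TAC, 16.6 in cKO baseline, 24.0 in CT TAC and 12.7 in CT baseline. Cacnb2 was lower and Cacnb1 higher in each TAC library than in its baseline library, and neither passed 2-fold. For Cacnb2 the difference was beyond counting error in cKO (fold 0.595, interval 0.454 to 0.777) and not in CT (0.811, 0.642 to 1.02). For Cacnb1 it was so in CT (1.89, 1.2 to 3.04) and not in cKO (1.42, 0.855 to 2.38). Of all beta subunit reads Cacnb1 took 29.1% in cKO TAC (interval 21.9 to 37.1), 15.9% in cKO baseline (10.7 to 22.3), 27.1% in CT TAC (20.7 to 34.3) and 13.5% in CT baseline (9.57 to 18.4). The TAC difference in limma's fit was 0.69 for Cacnb1 (SE 0.30, adjusted p = 0.291) and -0.52 for Cacnb2 (SE 0.22, adjusted p = 0.275).

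Cacna2d1, the alpha2delta subunit of cardiac calcium channels, stayed within 1.5-fold across the libraries. It had 261 CPM in cKO TAC, 230.0 in cKO baseline, 297 in CT TAC and 264 in CT baseline, with ratios from -0.20 to 0.18 in the 4 pairs. It held 97.9% to 99.5% of alpha2delta reads in every library. Cacng7, a gamma subunit, had 8.16 CPM in cKO TAC, 3.06 in cKO baseline, 6.99 in CT TAC and 2.22 in CT baseline, higher in both TAC libraries. It passed in CT (1.46, fold interval 1.13 to 9.98) and not in cKO (1.29). In limma's fit it was 1.37 higher with TAC (SE 0.48, adjusted p = 0.191). Cacna2d2 and Cacnb3 each had 1 read in cKO baseline, against 12 and 11.7 reads in CT baseline, and passed there with fold intervals from 0.00322 to 0.929. Cacnb3 also passed in cKO TAC against cKO baseline (2.24, interval 1.11 to 351). These rest on 1 read. The remaining auxiliary genes, Cacna2d3 and Cacnb4, had at most 1.90 CPM and did not pass.

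The pacemaker genes had different patterns. Hcn2, the main HCN gene of the ventricle (chromosome 10, 79716634 to 79736108), had 23.4 CPM in cKO TAC, 61.2 in cKO baseline, 45.9 in CT TAC and 46.3 in CT baseline. The cKO TAC library was low, and the CT libraries did not differ beyond counting error. Hcn2 was lower by 1.37 in cKO TAC than in cKO baseline (fold 0.382, interval 0.261 to 0.552), while the TAC ratio in CT was -0.01. Between the TAC libraries its genotype ratio of -0.96 did not pass (0.509, 0.346 to 0.739). Hcn4, the main HCN gene of the sinoatrial node, had 4 reads in cKO TAC, 5 in cKO baseline, 3 in CT TAC and 14 in CT baseline and did not pass in any pair. It was at most 5.19 CPM.

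Of the 12 genes with TRP names 2, Trpv4 and Trpv2, passed under TAC in CT, where 10.7% of all genes passed. None of the 12 passed in cKO TAC against CT TAC, in cKO baseline against CT baseline or under TAC in cKO, where 5.02%, 5.06% and 6.51% of all genes did. Trpv4, a channel opened by stretch and cell swelling (chromosome 5, 114622152 to 114658421), had 22.3 CPM in cKO TAC, 15.3 in cKO baseline, 12.5 in CT TAC and 27.8 in CT baseline. It was lower by 1.13 in CT TAC than in CT baseline (fold 0.449, interval 0.273 to 0.714) and at 0.53 in cKO. With log2(CPM + 5) the CT ratio was -0.91 and did not pass. The genotype ratio was 0.81 under TAC (1.79, 1.06 to 3.07) and -0.84 at baseline (0.550, 0.335 to 0.875), with intervals on opposite sides of 1. Trpv2, which macrophages and stressed muscle express, had 10 reads in cKO TAC, 3 in cKO baseline, 9 in CT TAC and 3 in CT baseline. Its CT ratio was 1.64 (interval 1.01 to 23.2). The 13 macrophage markers summed to 903 CPM in cKO TAC, 1037 in cKO baseline, 666 in CT TAC and 451 in CT baseline. Higher were 8 of the 13 in cKO baseline against CT baseline (3.26% of all genes) and 3 in CT TAC against CT baseline (6.05%). The part of these markers in Trpv2 was not tested.

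Trpm7, a channel with a kinase domain that carries magnesium and calcium, was the highest TRP channel. It had 115 CPM in cKO TAC, 102 in cKO baseline, 96.3 in CT TAC and 91.9 in CT baseline, and did not differ by more than counting error in any pair. Trpm4, a calcium-activated channel for monovalent cations, had 33.7 CPM in cKO TAC, 28.1 in cKO baseline, 28.0 in CT TAC and 44.9 in CT baseline. It was thus highest in CT baseline, with ratios of -0.66 in cKO baseline (fold 0.627, interval 0.437 to 0.888) and -0.67 in CT TAC (0.623, 0.446 to 0.862) against it. Trpc1 had 21.8 CPM in cKO TAC, 18.3 in cKO baseline, 33.4 in CT TAC and 20.02 in CT baseline, and CT TAC was highest. Trpc2, Trpc4, Trpm2, Trpm3 and Trpm6 were under 8 CPM in every library and did not pass. The exons of Trpc2 lie 97.5% within another annotated gene on the same strand, so its reads cannot be assigned with certainty. Trpc4ap had 161 to 183 CPM.

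Among connexins, Gja1 was highest in cKO baseline. It encodes connexin 43, the main gap junction protein of ventricular muscle (chromosome 10, 56377330 to 56402513). It had 243 CPM in cKO TAC, 425 in cKO baseline, 253 in CT TAC and 204 in CT baseline. The interval of cKO baseline (394 to 458) lay clear of the others, which together reached from 188 to 276. Gja1 was higher by 1.06 in cKO baseline than in CT baseline (fold 2.08, interval 1.86 to 2.33) and at -0.06 in cKO TAC against CT TAC. Its TAC ratio was -0.81 in cKO (0.571, 0.505 to 0.644) and 0.31 in CT (1.24, 1.094 to 1.398). In limma's fit the genotype difference was 0.50 (SE 0.24, adjusted p = 0.655). Fibroblasts and macrophages also make this connexin, and the markers of both given above were higher in cKO baseline than in CT baseline, 6 and 8 of 13. In cKO TAC against cKO baseline, where Gja1 was lower, 8 fibroblast markers were higher (3.68% of all genes) and 1 macrophage marker lower (2.83%). Their part in the level of Gja1 was not tested. Its share of all connexin reads was 82.0% in cKO TAC (interval 78.5 to 85.1), 91.1% in cKO baseline (88.8 to 93.0), 83.9% in CT TAC (80.7 to 86.8) and 83.4% in CT baseline (80.3 to 86.1).

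Gjc1, connexin 45 of the conduction system, had 40.8 CPM in cKO TAC, 28.7 in cKO baseline, 37.9 in CT TAC and 23.4 in CT baseline. Both TAC libraries were above both baseline libraries, under 2-fold (0.50 in cKO and 0.69 in CT). The difference was beyond counting error in CT (fold interval 1.15 to 2.31) and not in cKO (0.972 to 2.09). For TAC limma's fit gave 0.59 (SE 0.25, adjusted p = 0.283). Gja4, connexin 37 of arterial endothelium, had 13 reads in cKO TAC, 3 in cKO baseline, 8 in CT TAC and 19 in CT baseline. It passed in cKO baseline against CT baseline (-1.70, fold interval 0.0494 to 0.885) and in cKO TAC against cKO baseline (1.70, 1.06 to 21.1). The 13 endothelial markers summed to 1918 CPM in cKO TAC, 1894 in cKO baseline, 1967 in CT TAC and 2221 in CT baseline, and none passed in any pair. Gja5, connexin 40 of atrium, conduction fibres and endothelium, had 4 reads in cKO TAC, 9 in cKO baseline, 8 in CT TAC and 12 in CT baseline and did not pass, nor did Gja3.

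**Figure D3:**
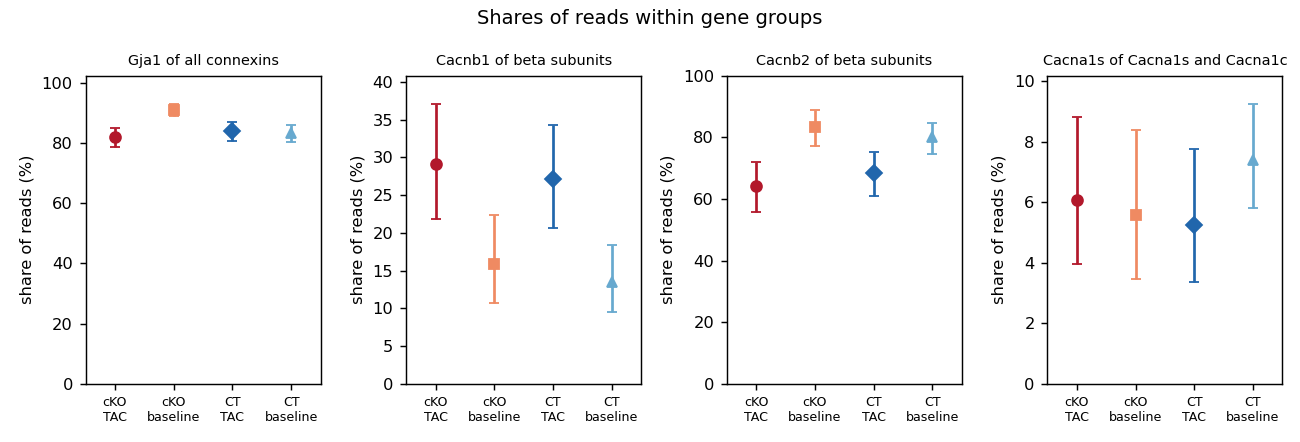
Share of reads (percent) of Gja1 among connexins, of Cacnb1 and of Cacnb2 among beta subunits, and of Cacna1s among Cacna1s and Cacna1c, in the libraries cKO TAC, cKO baseline, CT TAC and CT baseline, with exact 95% intervals. Gja1 stands apart in cKO baseline, Cacnb1 is higher and Cacnb2 lower in the TAC libraries, and the intervals of Cacna1s overlap. Intervals of TAC and baseline also overlap for Cacnb1 in cKO and for Cacnb2 in CT. Cacnb1 and Cacnb2 are shares of the same reads, so a rise of one goes with a fall of the other.

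By comparison, none of the 41 genes passed between the library labelled cKO TAC and CT TAC, against 5.02% of all genes (2.93% higher and 2.09% lower). Ratios ran from -1.53 for Scn3a to 1.43 for Scn2a1, with a median of 0.08 against 0.01 over all genes. The intervals of 5 of the 41 excluded 1 at any fold (12.2%, against 20.7% of all genes): Hcn2, Cacna2d1 and Trpc1 were lower and Scn7a and Trpv4 higher in cKO TAC. Between cKO baseline and CT baseline 7 of the 41 passed (17.1%), against 5.06% of all genes. Higher were 3, among them Scn10a and Gja1, against 3.26% of all genes, and Scn4a, Cacna2d2, Cacnb3 and Gja4 lower, against 1.8%. A mean of at least 5 CPM was reached by 3 of the 7, among them Scn4a and Gja1. With log2(CPM + 5) in place of the deposited values the count was 2 (Scn4a and Gja1), and with a 99% interval 3. The median was 0.05, against 0.00 over all genes.

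Between CT TAC and CT baseline 8 of the 41 passed (19.5%), against 10.7% of all genes. Higher were 3, among them Cacng7 and Trpv2, against 6.05% of all genes, and Scn3a, Scn4a, Scn4b, Cacna1s and Trpv4 lower, against 4.67%. With log2(CPM + 5) the count was 3, among them Scn4a and Scn4b, and with a 99% interval 5. The median was -0.11, against 0.01 over all genes. Between cKO TAC and cKO baseline 4 of the 41 passed (9.76%), against 6.51% of all genes: Cacnb3 and Gja4 higher (3.68% of all genes) and Scn3a and Hcn2 lower (2.83%). With log2(CPM + 5) or a 99% interval the count was 1. The median was 0.17, against -0.00 over all genes. The CT pair and the baseline genotype pair share the CT baseline library, and the cKO pair shares cKO baseline with that genotype pair. The intervals of 15, 16 and 8 of the 41 excluded 1 at any fold in the baseline genotype pair, the CT pair and the cKO pair (36.6%, 39.0% and 19.5%), against 19.6%, 31.6% and 22.1% of all genes.

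**Figure D4:**
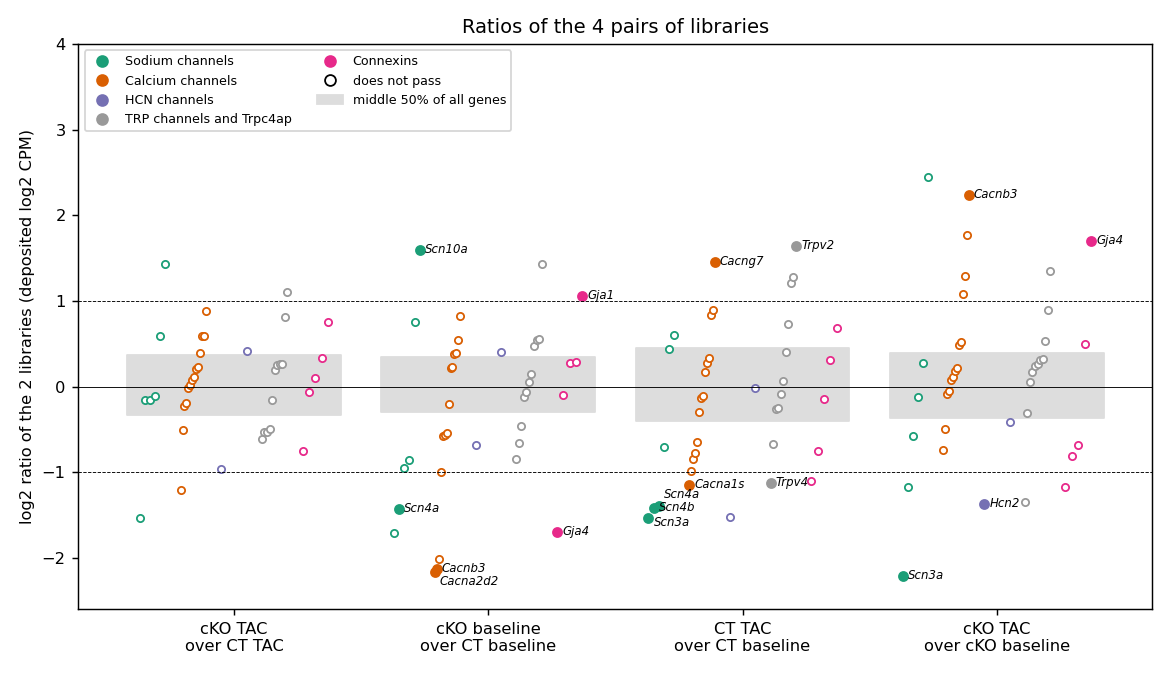
Log2 ratio of 38 of the 41 genes in the 4 pairs of libraries, by family; filled and named points are at least 2-fold apart with a counting interval that excludes 1, and the grey band holds the middle 50% of all genes. No point is filled for cKO TAC over CT TAC, and 6, 7 and 4 are filled in the other pairs.

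In the fits over all 4 libraries limma called none of the 41 genes at an adjusted p under 0.05, for genotype or for TAC. It called 3 of 12408 genes for genotype (0.0242%) and 226 for TAC (1.82%). At an unadjusted p under 0.05, 2 of the 41 differed by genotype, Scn7a and Scn4a (4.88%, against 7.77% of all genes), and 11 by TAC (26.8%, against 16.2% of all genes). For TAC 5 of these were higher, among them Cacng7, Trpv2, Gjc1 and Cacnb1, and 6 lower, among them Scn3a, Scn4a, Scn4b, Cacnb2 and Hcn2. The fit has no term for a shift of an effect between states or genotypes. For Scn4a the genotype ratio was -1.43 at baseline and -0.15 under TAC, and the TAC ratio -1.39 in CT and -0.12 in cKO. The TAC ratio of Hcn2 was -0.01 in CT and -1.37 in cKO.

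The TAC ratio differed by at least 1 log2 unit between the genotypes for 15 of the 41 genes, against 19.9% of all genes. With log2(CPM + 5) it did so for 6. This difference was not tested, since no library is left for its error. The ratio was higher in cKO for 8 of them (9.78% of all genes) and lower for 7 (10.1%). Among those with a mean of at least 5 CPM, Trpv4 had 0.53 in cKO and -1.13 in CT, Scn4a -0.12 and -1.39, and Cacna1s 0.08 and -1.15. On the other side stood Hcn2 with -1.37 in cKO and -0.01 in CT, Cacna1a with -0.49 and 0.84, and Gja1 with -0.81 and 0.31. Of the 15, 8 had fewer than 5 CPM on average, among them Cacnb3, Cacna2d2, Gja4 and Scn2a1.

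**Figure D5:**
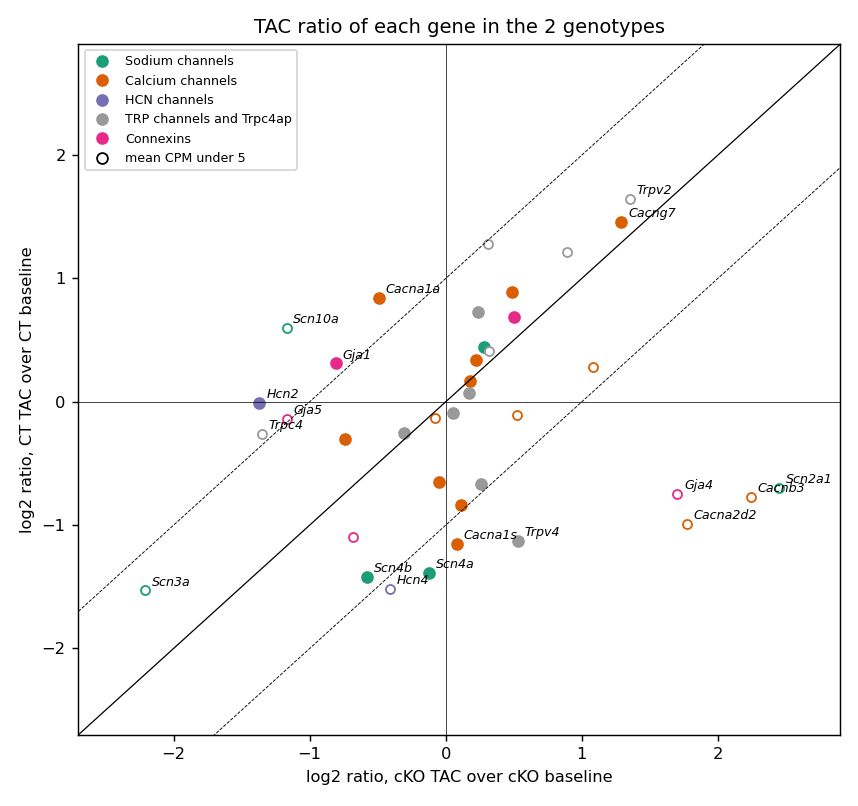
Log2 ratio of TAC over baseline in cKO (horizontal) and in CT (vertical) for 38 of the 41 genes; the solid line marks equal ratios, dashed lines a difference of 1, and open points a mean under 5 CPM. Scn4a, Cacna1s and Trpv4 lie low in CT and near or above 0 in cKO, and Gja1 and Hcn2 lie left of the line.

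Genes that act with these channels were followed in lists of their own. Of 18 sodium channel partners 17 were listed, and 1 passed in cKO TAC against CT TAC, 2 in cKO baseline against CT baseline, 2 in CT TAC against CT baseline and 1 in cKO TAC against cKO baseline, with medians from -0.17 to 0.06. Of all genes 5.02%, 5.06%, 10.7% and 6.51% passed in these pairs, in the same order. Rangrf, also called MOG1, which helps sodium channels reach the membrane, had 51.5 CPM in cKO TAC, 196 in cKO baseline, 80.5 in CT TAC and 68.1 in CT baseline. It was higher by 1.52 in cKO baseline than in CT baseline and lower by 1.92 in cKO TAC than in cKO baseline, and its reads were partly shared.

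Of 17 L-type channel regulators and dyad genes 13 were listed. Rrad, a small GTPase that restrains the L-type current, had 96.8 CPM in cKO TAC, 133 in cKO baseline, 41.9 in CT TAC and 105 in CT baseline. It was higher in cKO TAC than in CT TAC (fold interval 1.77 to 3.03) and lower by 1.31 in CT TAC than in CT baseline, and CT TAC was the low library. Under TAC in CT, Jph2, which holds the L-type channel beside the release channel, was also lower (-1.28) and Bin1, which shapes the T-tubule, higher (1.04). No gene of this list passed in cKO baseline against CT baseline or in cKO TAC against cKO baseline, where 5.06% and 6.51% of all genes did. Its medians were 0.10 to 0.19, against -0.00 to 0.01 over all genes.

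All 19 intercalated disc genes were listed. Lower were 2 in cKO TAC against CT TAC (2.09% of all genes) and 1 in cKO baseline against CT baseline (1.8%). In CT TAC against CT baseline 1 was higher (6.05%) and 1 lower (4.67%). Ctnna3, an alpha-catenin, had 13.1 CPM in cKO TAC, 12.8 in cKO baseline, 42.1 in CT TAC and 32.1 in CT baseline, and was lower in cKO by 1.65 under TAC and by 1.29 at baseline. Cxadr was lower by 1.26 in cKO TAC than in CT TAC. Under TAC in CT, Xirp2 was higher (2.27) and Dsg2 lower (-1.01), and no gene passed under TAC in cKO. Reads of Ctnna3 and Cxadr were partly shared. Medians ran from -0.12 to 0.07.

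Among 26 other cation channels and store-operated entry genes 21 were listed and 0, 2, 2 and 3 passed, all higher, in cKO TAC against CT TAC, cKO baseline against CT baseline, CT TAC against CT baseline and cKO TAC against cKO baseline. Of all genes 2.93%, 3.26%, 6.05% and 3.68% were higher in these pairs. Panx1, a channel related in shape to connexins, had 27 reads in cKO TAC, 11 in cKO baseline, 17 in CT TAC and 5 in CT baseline and passed in the last 3 pairs (1.62, 1.94 and 1.07). Pkd1 (1.07) and Itpr3 (1.37) were higher in cKO TAC than in cKO baseline. Of 20 conduction and chamber regulators 17 were listed, and 5 were lower in CT TAC than in CT baseline, against 4.67% of all genes. They were Hey2 (-2.09, on 1 read in CT TAC), Hopx (-1.37), Nkx2-5 (-1.22), Tbx3 (-1.12) and Tbx5 (-1.08). Tbx5, a transcription factor known to act on Gja5, had 28.8 CPM in cKO TAC, 23.2 in cKO baseline, 24.96 in CT TAC and 53.4 in CT baseline. Like Scn4a it was high in CT baseline, and it was also lower by 1.18 in cKO baseline than in CT baseline. The list's median was -0.12 in CT TAC against CT baseline and -0.05 in cKO TAC against CT TAC, 0.05 at baseline and -0.31 in cKO TAC against cKO baseline, where Cntn2 passed.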

How the data were processed

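Total RNA of whole hearts was sequenced on Illumina libraries, per the labels' protocols. Named in the submitters' processing notes are mm10, HISAT2, CASAVA and edgeR, with no role, version or setting. How reads were counted, and on which annotation, is not given in the sources used here. Values deposited by the authors are log2 CPM with a small prior count, as read from the values, since the file headers give only a library name. They lie on a grid, from which reads were recovered, with 1 read (scaled by library size) added before the logarithm. Whole reads (within 0.01) were found for 88.6% to 89.0% of genes per library, and fractions of a read occurred in at least 1 library for 2449 genes (19.7%). Of the 41 genes 14 were among them, including Cacna1a, Cacna1c, Cacna1d, Cacna1g, Cacna1h, Cacna1s, Cacna2d1, Cacnb1, Cacnb3, Cacnb4, Trpc4, Trpc4ap and Trpm3. Values of these are uncertain by the reads shared. No count test was run because of these genes.

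Log2 ratios are differences of deposited values, which understate the ratio of genes with few reads. Folds and Clopper-Pearson 95% intervals come from recovered reads, rounded, and effective library sizes. Intervals of single levels are exact Poisson intervals. The linear model across all 12408 genes used limma 3.58.1 in R 4.3.3 with trend = TRUE, with Benjamini-Hochberg adjustment over all of them, 10.1 prior and 1 residual degrees of freedom. Each group is 1 mouse, so the residual is the shift of an effect between states, not a spread between mice of a group, and the p-values rest mainly on variance shared across genes. The scripts were tested on simulated data. Gene positions and exon lengths are from GENCODE M21 (GRCm38, the mm10 build), and promoters from RefSeq.

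The genes, the lists of partner and marker genes and the alternatives were chosen with earlier results of these data known. Genes named are those that passed in a pair, and a fixed set of main cardiac members. Cacna1a, Cacna1d, Cacna2d3, Cacnb1, Cacnb4, Gja3, Scn2a1, Trpc2, Trpc4, Trpc4ap, Trpm2, Trpm3 and Trpm6 were named after their values were seen. From each further list at most 4 passing genes a pair are named. Further marker lists, of smooth muscle and pericyte, lymphocyte, mesothelial, atrial and adipocyte cells, are summed in the closing section. Some genes are not reported here, and stand only in counts.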

Additional observations from a re-analysis of the deposited data

Results flagged for a closer look

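For 3 genes, the pairs had counting intervals on opposite sides of 1 in the 2 genotypes or the 2 states. The difference was not tested for any of them. Gja1 had a TAC ratio of -0.81 in cKO and 0.31 in CT (log2). Hcn2 had a ratio of cKO to CT of -0.96 under TAC and 0.40 at baseline. Trpv4 had a ratio of cKO to CT of 0.81 under TAC and -0.84 at baseline. Each group is 1 mouse, and no group held enough samples for a search for samples far from the others.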

How the results depend on the processing

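Of the counts of genes past a threshold, recomputed under other settings, 24 stayed within 1.5 times, 3 were larger and 9 smaller. Many of the 24 are counts of 0 that stayed 0, which say little about stability. These are the counts of limma's fits, and those of cKO TAC against CT TAC except with 1.5-fold. With a threshold of 1.5-fold in place of 2-fold, 4 of the 41 genes passed in cKO TAC against CT TAC, 12 in cKO baseline against CT baseline and 13 in CT TAC against CT baseline. With a 99% interval, 3 passed in cKO baseline against CT baseline, 5 in CT TAC against CT baseline and 1 in cKO TAC against cKO baseline. With log2(CPM + 5), these counts were 2, 3 and 1, and 6 genes in place of 15 had TAC ratios at least 1 apart between genotypes. With a mean CPM of at least 5, 3 passed in cKO baseline against CT baseline and 1 in cKO TAC against cKO baseline, since the lower genes drop out. Limma called none of the 41 in any of the 5 other fits per effect. Genotype differences in limma's fit, none of them called, changed sign for Cacna1h (0.00), Cacnb2 (0.09) and Trpv4 (0.08) with libraries scaled to total reads, and for Cacnb2 (0.00) with log2(CPM + 5). Leaving out 1 library leaves limma no residual degrees of freedom, so the effect is then the ratio of the remaining whole pair, given in the text, with no test. No paired analysis was possible because the labels give no replicate numbers and each group holds 1 mouse.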

Other observations

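On chromosome 2 Scn3a (65457118 to 65567627), Scn2a1 (65620771 to 65767447) and Scn7a (66673425 to 66784914) lie in this order. Under TAC in cKO they were at -2.21, 2.45 and 0.28. Scn2a1 had 4 reads in cKO TAC and 0 in cKO baseline, and the counting interval of its fold included 1.

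Other marker lists varied between libraries. The 13 smooth muscle and pericyte markers summed to 4444 CPM in cKO TAC, 4358 in cKO baseline, 3360 in CT TAC and 3424 in CT baseline. Of 9 lymphocyte markers 2 were listed (11.4, 17.7, 8.98 and 4.70 CPM in the same order of libraries), of 7 mesothelial markers 1 (2.72, 4.28, 0.998 and 3.34), and of 8 adipocyte markers 2 (2279, 778, 2094 and 1290, nearly all Fabp4, which endothelium also expresses). Of 8 atrial markers 3 were listed, and they summed to 6502 CPM in cKO TAC, 2059 in cKO baseline, 3617 in CT TAC and 162 in CT baseline, nearly all of it Nppa, which the loaded ventricle also expresses. Myl7, Sln, Bmp10, Dhrs9 and Mybphl were the atrial markers not listed, and Myl4 had at most 5.44 CPM. How much atrium the libraries held was not tested.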
